A study of Mus musculus with 15 samples.

Results

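Iron import, storage and export was followed through 10 genes, Slc40a1, Tfrc, Slc11a2, Fth1, Ftl1, Ireb2, Aco1, Steap3, Slc39a14 and Trf, out of 24421 genes in the count table. The genes were matched by symbol, and all 10 were found and passed the filter on low counts, as did 14421 genes in all. They were chosen by their known roles, but with measured values of these libraries already known, among them the low level of Slc40a1 after 4 h of forskolin, which is therefore given as a description with no test.

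The cells were MAP cells, an immortalized mouse line of adipocyte progenitors, sequenced after they had been differentiated into adipocytes. All 5 groups shared the same differentiation, which was 2 days of insulin, isobutylmethylxanthine, dexamethasone and rosiglitazone and then 2 days of insulin and rosiglitazone. The differentiated cells were treated from day 7 to 8 on, in a setting that the labels call browning, the gain of heat-producing features by fat cells. One group received vehicle. The FSK4h, FSK1D and FSK3D groups received forskolin, a plant compound that activates adenylyl cyclase and so raises cyclic AMP, for 4 h, 1 day or 3 days. The Rosi3D group received rosiglitazone, a drug that activates PPARγ, the main transcription factor of fat cells, for 3 days. Each group had 3 libraries of total RNA depleted of ribosomal RNA. Every group, vehicle included, had thus met rosiglitazone during differentiation, and also isobutylmethylxanthine, a phosphodiesterase inhibitor that slows the breakdown of cyclic AMP. MAP is a single immortalized line. The sources used here do not give the later doses or when vehicle cells were harvested. Vehicle was a single group, so time under forskolin cannot be told apart from time in culture. Whether a group's libraries came from separate cultures is not stated either, so p-values cover the spread between libraries only, and that spread may be technical.

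Cells take up most of their iron as transferrin, the carrier protein of blood encoded by Trf, which binds the transferrin receptor Tfrc at the surface and is carried into endosomes. There the reductase Steap3 turns ferric into ferrous iron, and the transporter Slc11a2 (DMT1) moves it into the cytosol, while Slc39a14 (ZIP14) brings in iron that is not bound to transferrin. Iron not needed at once is stored in ferritin, a shell of heavy (Fth1) and light (Ftl1) chains, and leaves the cell through ferroportin (Slc40a1). The iron regulatory proteins IRP1 (Aco1) and IRP2 (Ireb2) sense cytosolic iron and, when it is scarce, bind hairpins called iron-responsive elements, which blocks translation when the hairpin lies in a 5′ UTR and stabilizes the mRNA when it lies in the 3′ UTR of Tfrc. In adipocytes iron is needed by the mitochondrial respiratory chain, and brown and beige fat cells are rich in mitochondria.

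The hairpins are shown because they mark which of the 10 genes carry the letters of this control, and in which UTR. The letters were searched on the sense strand of the UTRs of GENCODE vM21 protein-coding transcripts (GRCm38) as a C, 5 bases, the loop CAGTGN and 5 bases that all pair with the first 5, G with T allowed. Capitals mark the unpaired C and the loop.
Slc40a1, 5′ UTR, chr1:45925464-45925493, minus strand: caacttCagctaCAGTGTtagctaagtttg
Fth1, 5′ UTR, chr19:9982732-9982761, plus strand: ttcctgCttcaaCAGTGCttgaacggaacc
Ftl1, 5′ UTR, chr7:45459778-45459807, minus strand: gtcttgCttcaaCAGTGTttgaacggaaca
Tfrc, 3′ UTR, chr16:32631219-32631248, plus strand: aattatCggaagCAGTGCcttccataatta
Tfrc, 3′ UTR, chr16:32631598-32631627, plus strand: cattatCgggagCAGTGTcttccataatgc
Tfrc, 3′ UTR, chr16:32631663-32631692, plus strand: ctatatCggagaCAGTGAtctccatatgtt
Tfrc, 3′ UTR, chr16:32631710-32631739, plus strand: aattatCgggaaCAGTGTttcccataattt
Of the 10 genes, 3 held a match in a 5′ UTR and 1, Tfrc, in its 3′ UTR. Over all genes with such a region a match stood in 31 of 20899 (0.148%) for 5′ UTRs and in 129 of 21028 (0.613%) for 3′ UTRs. The heavy and light ferritin sites were identical at 26 of 30 bases. The 4 Tfrc sites shared 18 to 25 of 30 bases with each other, and 9 to 13 with the ferritin sites. A match is a run of letters and no measurement of binding, and a UTR without one only lacks these letters.

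Total counts were 14056200 to 56282582 over the 15 libraries, and the lowest was an FSK3D library. No pair of libraries of a group differed by as little as sampling noise (chi-square per degree of freedom 3.12 to 11.2). The ribosomal RNA precursor Rn45s took 8.53% ± 0.0385 of counts in vehicle and 8.68% ± 0.175 in FSK4h (SD, n = 3), and less after that, with 7.60% ± 0.564 in FSK1D, 6.63% ± 0.534 in Rosi3D and 4.77% ± 0.89 in FSK3D. CPM, here and below, are counts set to the same total in each library and then scaled by the trimmed mean of M values (TMM). The summed level of 10 mature adipocyte markers was highest in Rosi3D, at 20587 to 21937 CPM, and next in FSK3D, at 15459 to 15764. It was 8924 to 10308 CPM in vehicle, 9750.2 to 11293 in FSK4h and 7227 to 7958 in FSK1D. The labels give the cell type as adipocyte progenitor, and all 10 mature markers were detected in every group. The 9 progenitor markers found summed to 1593 to 1696 CPM in vehicle and to 1701 to 1807, 1771 to 1825 and 1447 to 1563 CPM at the 3 forskolin times. In Rosi3D they summed to 968 to 1002 CPM, and all 7 that were tested were lower than in vehicle, beside 32.0% of all genes. Dpp4 and Pi16 were at no more than 4 and 15 counts in any library, and Dpp4 was at 0 in every treated group. Cd34, Dlk1 and Thy1 were low in vehicle, at 1.48, 1.14 and 1.79 CPM. The sum thus came almost wholly from Pdgfra, Pdgfrb, Ly6a and Itgb1, which stood at 209, 402, 121 and 913 CPM in vehicle. Macrophage markers, 12 genes, summed to only 3.54 to 12.1 CPM, with Tyrobp at 0 and Ptprc and Adgre1 at no more than 4 and 2 counts in any library. The 10 erythroid markers summed to 5.17 to 7.16 CPM in vehicle and to 12.4 to 16.6 CPM in Rosi3D. Alas2 made up most of that sum, and Epor went from 0.425 CPM in vehicle to 2.29 in Rosi3D. The globin genes of red cells were at 0 counts in every library.

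Levels below are likewise TMM-scaled CPM, as mean ± SD of 3 libraries. Differences are log2 fold changes ± standard error (SE) from 1 edgeR fit over all 15 libraries, with a call at an adjusted p under 0.05 over all tested genes. Per length, the vehicle cells held most ferritin mRNA, with 604 ± 17.1 CPM per kb for Ftl1 and 388 ± 6.3 for Fth1. Both stood at 586 CPM before division by length, so the order of the ferritin chains rests on the deposited lengths, 970 and 1511 bases. Trf followed at 151 ± 26, then Tfrc at 81.5 ± 6.9 and Aco1 at 80.8 ± 4.49 CPM per kb, a pair that did not differ beyond its spread. Steap3 stood at 32 ± 0.632, Ireb2 at 26.5 ± 1.02, Slc11a2 at 15.8 ± 0.928 and Slc39a14 at 8.33 ± 0.276 CPM per kb. The exporter gene Slc40a1 was lowest, at 4.63 ± 0.274 CPM per kb. Fewer cells of a type and less RNA per cell cannot be told apart in such bulk libraries.

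**Figure D1:**
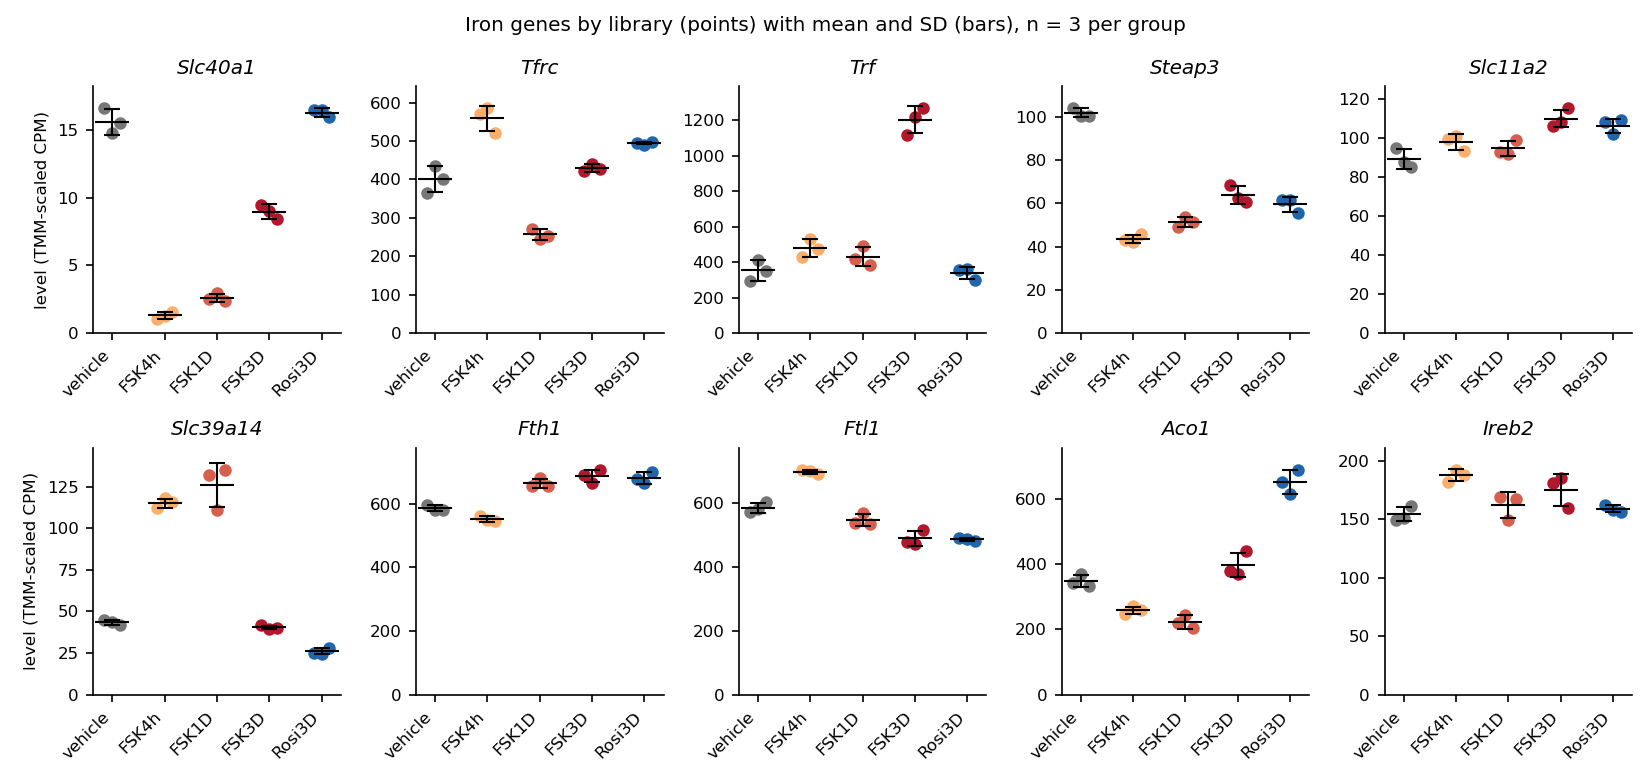
TMM-scaled CPM (y axis, from 0) of each of the 10 iron genes in the 15 libraries (points), by group on the x axis, with the mean and SD of 3 libraries (bars). Slc40a1 falls from 15.6 to 1.3 CPM at 4 h and climbs back in steps, Trf stands apart at 3 days of forskolin (1202 CPM), Slc39a14 is high at 4 h and 1 day, and Aco1 is highest in Rosi3D (653 CPM).

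The exporter gene Slc40a1 (chr1:45908068-45926523, minus strand) had the widest range of the 10 across the groups. It stood at 16.6, 14.8 and 15.5 CPM in the vehicle libraries and at 1.02, 1.29 and 1.58 CPM in FSK4h. The FSK1D libraries had 2.55, 2.95 and 2.37 CPM, and the FSK3D libraries 9.46, 9.05 and 8.4 CPM. Rosi3D gave 16.5, 16.5 and 16 CPM. Every forskolin library thus lay below every vehicle and Rosi3D library, and no forskolin time overlapped another, with the lowest level at the earliest time. At 4 h the mean was 12.2-fold below vehicle (log2 -3.61 ± 0.15), the 15th lowest log2 fold change of the 14421 genes tested. The counts behind it were 32 to 44 per FSK4h library against 422 to 539 in vehicle. At 1 day Slc40a1 was 5.95-fold below vehicle (-2.57 ± 0.13), and at 3 days 1.75-fold below (-0.81 ± 0.12). The comparisons of Slc40a1 with vehicle are given without a p because they share the vehicle libraries of the known result. The rise between 4 h and 1 day was 1.03 ± 0.18, given without a p because it uses the FSK4h libraries again, and between 1 and 3 days it was 1.77 ± 0.14 (adjusted p = 9.33e-13). Under rosiglitazone the difference from vehicle was 0.06 ± 0.11 (95% interval -0.16 to 0.28). Macrophages, which recycle iron, are known for high ferroportin. Their marker sum was 5.19 to 5.25 CPM in vehicle, 10.2 to 12.1 CPM in FSK4h and 10.8 to 11.9 CPM in FSK1D, where Cd14 and Csf1r made up most of it, with Tyrobp at 0 and Ptprc and Adgre1 at or near 0 in all groups. The part of such cells in the level of Slc40a1 was not tested.

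Among the uptake genes, the receptor gene Tfrc (chr16:32608920-32632794, plus strand) rose early, fell at 1 day and had returned by 3 days. Vehicle libraries held 366, 434 and 401 CPM, FSK4h 570.2, 585 and 521, and FSK1D 272, 246 and 254 CPM. In FSK3D it stood at 423, 441 and 426 CPM and in Rosi3D at 496, 491 and 497. The FSK4h and Rosi3D libraries all lay above vehicle and the FSK1D libraries all below, while FSK3D lay within the top of the vehicle range or just over it. The rise at 4 h was 0.48 ± 0.051 (adjusted p = 8.67e-10) and the fall at 1 day 0.64 ± 0.052 below vehicle (log2 -0.64, adjusted p = 3.34e-12). From 4 h to 1 day Tfrc dropped 2.17-fold (-1.12 ± 0.052, adjusted p = 1.47e-18), and from 1 to 3 days it rose 1.67-fold (0.74 ± 0.052, adjusted p = 7.36e-14). Rosiglitazone raised it by 0.31 ± 0.051 (adjusted p = 4.27e-06). At 3 days of forskolin the difference from vehicle was not called (0.10 ± 0.052, adjusted p = 0.0921), but it was without vehicle library S2, the highest of its group (0.17, adjusted p = 0.0078).

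The carrier gene Trf (chr9:103204001-103230444, minus strand) was highest in the FSK3D libraries. They held 1118, 1220.5 and 1267 CPM, against 292, 414 and 352 CPM in vehicle and 355, 361 and 301 CPM in Rosi3D. The earlier forskolin groups had 430.3, 532 and 475 CPM at 4 h and 419, 489.5 and 382 CPM at 1 day. No other library came near the FSK3D range, and the FSK1D and vehicle ranges overlapped. Trf was 3.41-fold above vehicle at 3 days (1.77 ± 0.14, adjusted p = 8.69e-07), 2.79-fold above 1 day (1.48 ± 0.14, adjusted p = 4e-06) and 3.54-fold above Rosi3D (1.83 ± 0.14, adjusted p = 8.94e-07). The smaller difference at 4 h (0.44 ± 0.14, adjusted p = 0.0179) was lost without vehicle S1 (0.33, adjusted p = 0.0597) or FSK4h S5 (0.37, adjusted p = 0.0628), with library sizes alone as scaling (0.25, adjusted p = 0.131) and with only the 2 groups fitted (0.45, adjusted p = 0.0636). At 1 day it was not called (0.29 ± 0.14, adjusted p = 0.132), but it was without vehicle S2 (0.43, adjusted p = 0.0339). Mature adipocyte markers were also high in FSK3D, where 10 of 10 rose, beside 25.9% of all genes. They were higher still in Rosi3D, where 9 of 10 rose, beside 28.6% of all genes. Trf was there -0.06 ± 0.14 from vehicle (adjusted p = 0.752). The part of these markers in the rise of Trf was not tested. An overlapping gene model on the same strand, Gm20425, is not a row of the table, so reads of the 2 models cannot be told apart.

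Steap3 (chr1:120190757-120272705, minus strand), the endosomal reductase, was lower under every treatment. Vehicle stood at 104, 100.3 and 100.5 CPM, FSK4h at 43.2, 42.1 and 45.8 and FSK1D at 49, 53.7 and 51.3 CPM. FSK3D had 68.4, 62.7 and 60.7 CPM and Rosi3D 61.7, 61.8 and 55.7. None of the 12 treated libraries reached the lowest vehicle library. The fall was deepest at 4 h, 2.32-fold (-1.21 ± 0.058, adjusted p = 7.58e-19), and was 1.98-fold at 1 day (-0.98 ± 0.058, adjusted p = 4.43e-16), 1.59-fold at 3 days (-0.67 ± 0.058, adjusted p = 7.34e-12) and 1.70-fold under rosiglitazone (-0.76 ± 0.057, adjusted p = 8.88e-14). The partial return was called in both steps, 0.23 ± 0.06 from 4 h to 1 day (adjusted p = 0.00131) and 0.32 ± 0.059 from 1 to 3 days (adjusted p = 2.85e-05).

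Slc39a14 (chr14:70303469-70351425, minus strand), the importer of iron that is not bound to transferrin, rose at 4 h and 1 day and had gone back by 3 days. Vehicle libraries held 44.7, 43.6 and 41.9 CPM, FSK4h 112, 118 and 116 and FSK1D 132, 111 and 135 CPM. FSK3D had 41.5, 39.3 and 40.2 CPM and Rosi3D only 25.2, 24.5 and 27.9. The rises were 2.66-fold (1.41 ± 0.062, adjusted p = 8.26e-20) and 2.91-fold (1.54 ± 0.062, adjusted p = 1.79e-20), and the return from 1 to 3 days was a 3.13-fold fall (-1.64 ± 0.064, adjusted p = 1.45e-20). The FSK3D libraries lay just under the vehicle range, with no call (-0.10 ± 0.066, adjusted p = 0.191). Rosiglitazone lowered Slc39a14 1.68-fold (-0.75 ± 0.066, adjusted p = 7.52e-12), so that vehicle lay between the early forskolin groups and Rosi3D. Between 4 h and 1 day the difference was 0.13 ± 0.059 (adjusted p = 0.0592), which became 0.22 without FSK1D S8, the lowest of its group (adjusted p = 0.00161).

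Slc11a2 (chr15:100387898-100425072, minus strand), the endosomal iron transporter, moved least of the uptake genes. Vehicle libraries had 94.9, 87.7 and 84.8 CPM, FSK3D 106, 108 and 115 and Rosi3D 108, 102 and 109 CPM. Both 3-day groups lay above vehicle, by 0.30 ± 0.053 (adjusted p = 1.01e-05) and 0.25 ± 0.052 (adjusted p = 8e-05). FSK4h, at 99.4, 101 and 93.1 CPM, and FSK1D, at 92.8, 91.9 and 99 CPM, overlapped the vehicle range. The call at 4 h (0.13 ± 0.052, adjusted p = 0.0301) was lost without vehicle S2 or S3 or FSK4h S4 or S5 (adjusted p = 0.0609, 0.135, 0.0659 and 0.0668), and with library sizes alone as scaling the value turned to -0.06 (adjusted p = 0.312). At 1 day the value was 0.08 ± 0.053 (adjusted p = 0.21), and without vehicle S1 it was 0.15 (adjusted p = 0.0409). An antisense gene model, Gm5475, overlaps Slc11a2 and the handling of strand is not given in the sources used here, so reads of the pair cannot be told apart.

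**Figure D2:**
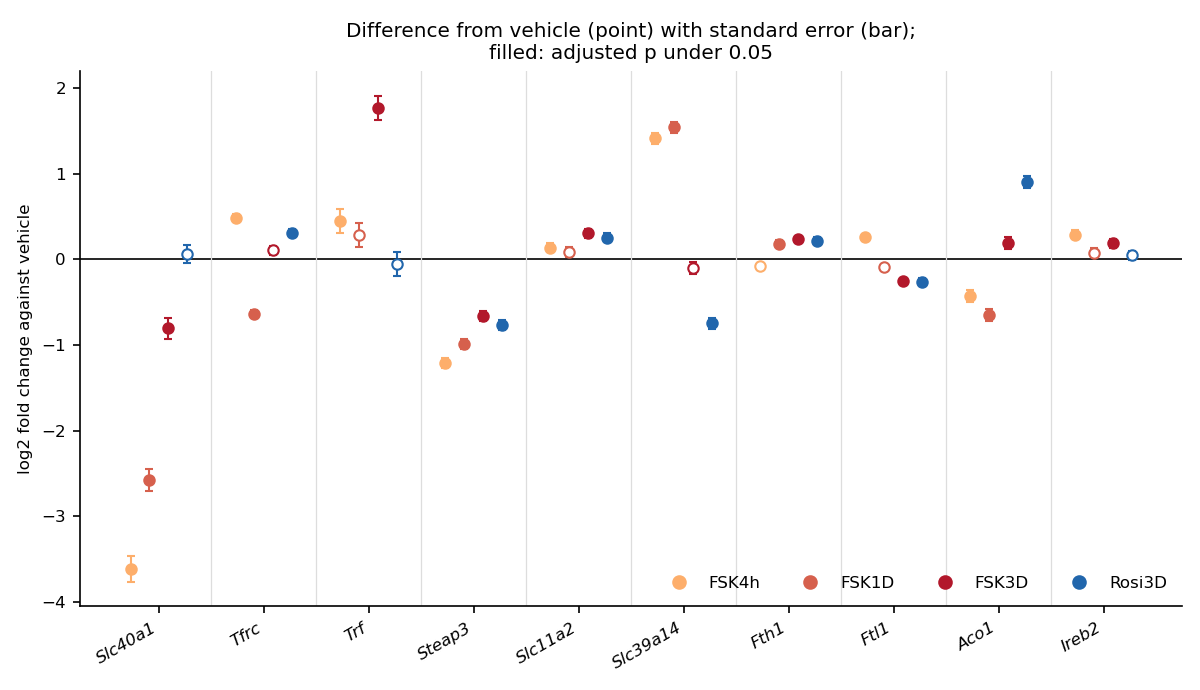
Log2 fold change against vehicle (y axis) of the 10 iron genes (x axis) in the 4 treated groups (colours), each point with its standard error as a bar, filled where the adjusted p was under 0.05. Slc40a1 lies at -3.61 at 4 h and -2.57 at 1 day, Steap3 lies below 0 in all 4 groups, and the ferritin chains Fth1 and Ftl1 stay within -0.27 and 0.25. The points of Slc40a1 are filled by the same rule, though its differences from vehicle are descriptions only.

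The ferritin chains moved little, and in opposite directions. Fth1 (chr19:9980598-9985098, plus strand), the heavy chain that oxidizes iron on entry, stood at 597, 581 and 580.3 CPM in vehicle and 563, 549.7 and 547 CPM in FSK4h. It then had 656, 681 and 657 CPM in FSK1D, 690.5, 667 and 707 in FSK3D and 677, 667 and 702 CPM in Rosi3D. All libraries of these last 3 groups lay above vehicle, by 0.18 ± 0.04 (adjusted p = 0.00042), 0.23 ± 0.04 (adjusted p = 1.02e-05) and 0.22 ± 0.04 (adjusted p = 1.75e-05). At 4 h the libraries lay below vehicle, with no call (-0.08 ± 0.04, adjusted p = 0.0764), and the step from 4 h to 1 day was 0.26 ± 0.04 (adjusted p = 1.03e-06). The 4-h value was -0.28 with library sizes alone as scaling (adjusted p = 3.38e-07).

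Ftl1 (chr7:45457944-45459884, minus strand), the light chain that helps the iron core form, took the reverse course. Its libraries held 572, 582 and 605 CPM in vehicle, 705, 700.3 and 692 in FSK4h and 539, 570.3 and 536 CPM in FSK1D. FSK3D had 478, 474 and 518 CPM and Rosi3D 491, 488 and 483. Ftl1 was above vehicle in every FSK4h library and below it in every library of the other 3 groups. The rise at 4 h was 0.25 ± 0.042 (adjusted p = 4.1e-06), but only 0.06 with library sizes alone (adjusted p = 0.195). The fall was 0.26 at 3 days of forskolin (log2 -0.26 ± 0.043, adjusted p = 4.22e-06) and 0.27 under rosiglitazone (-0.27 ± 0.043, adjusted p = 1.67e-06), while at 1 day it was not called (-0.10 ± 0.043, adjusted p = 0.0718). From 4 h to 1 day Ftl1 dropped by 0.35 (-0.35 ± 0.043, adjusted p = 1.26e-08), and from 1 to 3 days by 0.16 (-0.16 ± 0.043, adjusted p = 0.00173).

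The ratio of heavy to light chain within a library does not depend on how libraries are scaled. Per base of gene length it was 0.642 ± 0.0269 in vehicle and dropped to 0.508 ± 0.00426 in FSK4h (SD, n = 3). It was 0.778 ± 0.00992 in FSK1D, and 0.903 ± 0.0254 and 0.899 ± 0.0293 in the FSK3D and Rosi3D groups. The FSK4h libraries (0.504 to 0.512) all lay below vehicle (0.616 to 0.67), and the other treated groups all lay above it, with FSK3D and Rosi3D overlapping. A ratio within a library shows unequal change and not which chain moved. Its level depends on the deposited gene lengths, while its fold differences between groups do not. Ferritin genes have many processed copies in the genome, and how reads with several matches were counted is not given in the sources used here, so both levels are uncertain to that extent. The other ferritin genes in the table, Ftmt and Fthl17, had 0 counts in all 15 libraries. The gene models Gm22133 and Gm10252 overlap Ftl1 and are not rows of the table.

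The genes of the 2 iron sensors parted from each other. Aco1 (chr4:40143081-40198338, plus strand) encodes IRP1, which doubles as the cytosolic aconitase when it carries an iron-sulfur cluster. It stood at 342, 371 and 334 CPM in vehicle, 248, 271 and 259 in FSK4h and 221, 244 and 203 CPM in FSK1D. FSK3D had 381, 370.4 and 441 CPM and Rosi3D 652, 617 and 690.3. Every early forskolin library lay below vehicle and every Rosi3D library above all others, while FSK3D and vehicle overlapped by a single vehicle library. Aco1 fell by 0.43 at 4 h (-0.43 ± 0.069, adjusted p = 2.51e-05) and by 0.65 at 1 day (-0.65 ± 0.07, adjusted p = 2.34e-07). It then rose 1.79-fold from 1 to 3 days (0.84 ± 0.07, adjusted p = 4.03e-09), and under rosiglitazone it was 1.87-fold above vehicle (0.91 ± 0.069, adjusted p = 5.69e-10). Mature adipocyte markers were highest in Rosi3D as well, and their part in this rise was not tested.

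The calls of the 2 smaller Aco1 differences did not hold under every alternative. The excess over vehicle at 3 days of forskolin (0.19 ± 0.069, adjusted p = 0.0261) was not called without vehicle S1 (0.19, adjusted p = 0.0706), vehicle S3 (0.17, adjusted p = 0.084) or FSK3D S12, the highest of its group (0.11, adjusted p = 0.143). The step from 4 h to 1 day (-0.22 ± 0.07, adjusted p = 0.0115) was not called without FSK4h S5 (-0.18, adjusted p = 0.0642) or FSK1D S9 (-0.15, adjusted p = 0.0682), nor with library sizes alone (-0.05, adjusted p = 0.462).

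Ireb2 (chr9:54863789-54912530, plus strand) encodes IRP2, which is removed by the proteasome when iron is ample. Its libraries held 149.6, 151 and 161 CPM in vehicle, 182, 192 and 188 in FSK4h and 169, 149 and 167 CPM in FSK1D. FSK3D had 181, 185 and 159.6 CPM and Rosi3D 162, 158 and 156. Only the FSK4h libraries all lay above vehicle, by 0.29 ± 0.053 (adjusted p = 1.89e-05), a value that was 0.09 with library sizes alone (adjusted p = 0.138). The step from 4 h to 1 day was -0.21 ± 0.053 (adjusted p = 0.000837), but -0.05 with library sizes alone (adjusted p = 0.473). At 3 days of forskolin it was called higher although the ranges overlapped (0.18 ± 0.053, adjusted p = 0.00383), and under rosiglitazone it was not (0.04 ± 0.053, adjusted p = 0.484). At 1 day the difference from vehicle was 0.07 ± 0.053 (adjusted p = 0.289), and without FSK1D S8 it was 0.15 (adjusted p = 0.0313). From 1 to 3 days it was 0.11 ± 0.053 (adjusted p = 0.082), and without FSK3D S12 it was 0.16 (adjusted p = 0.00918).

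Per base, Aco1 mRNA was 3.05 ± 0.249 times as abundant as Ireb2 mRNA in vehicle and 1.86 ± 0.0295 times in FSK4h. The ratio was 1.86 ± 0.301 in FSK1D, 3.08 ± 0.555 after 3 days of forskolin and 5.54 ± 0.369 after 3 days of rosiglitazone. The early forskolin groups (1.63 to 2.21) lay below every vehicle library (2.80 to 3.29) and Rosi3D (5.26 to 5.96) above it, while FSK3D overlapped vehicle. The ratio of Tfrc, the receptor for uptake, to Slc40a1, the exporter, was 17.7 ± 2.51 in vehicle and 308 ± 79.8 in FSK4h. It was 68.1 ± 9.4 in FSK1D, 33.1 ± 2.11 in FSK3D and 20.9 ± 0.53 in Rosi3D. The 3 forskolin groups lay in steps above vehicle, and the lowest Rosi3D library (20.4) lay just over the highest vehicle library (20.2). Groups of 3 libraries cannot give an exact permutation p below 0.1, and these ratios are given as descriptions.

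**Figure D3:**
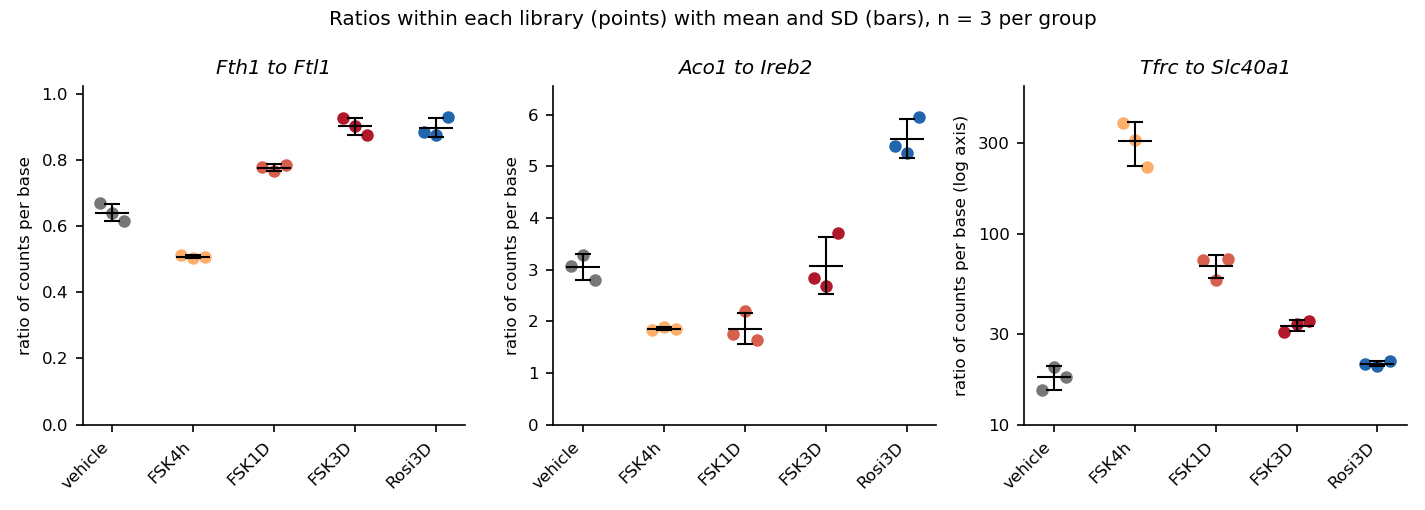
Ratios of counts per base of gene length within each library (points) with the mean and SD of 3 libraries (bars), for Fth1 to Ftl1, Aco1 to Ireb2 and, on a log axis, Tfrc to Slc40a1, by group on the x axis. Heavy to light ferritin chain is lowest in FSK4h (0.508) and highest at 3 days, Aco1 to Ireb2 is highest in Rosi3D (5.54), and Tfrc to Slc40a1 peaks in FSK4h (308).

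Read as a set, the 10 genes moved in both directions in every comparison. At 4 h 6 were higher and 3 lower than vehicle, beside 28.4% higher and 30.7% lower of all genes tested, with a median of 0.19 for the 10 and -0.03 for all genes. Nothing is read from that count, since a result of this comparison was known when the genes were chosen, and with library sizes alone as scaling, which moved the median of all genes by -0.19, it was 2 higher and 4 lower. At 1 day 2 were higher and 4 lower (19.5% and 20.7% of all genes), with a median of -0.01 against -0.02. At 3 days of forskolin 5 were higher and 3 lower (25.9% and 27.0%), with a median of 0.14 against 0.01. Under rosiglitazone 4 were higher and 3 lower (28.6% and 32.0%), with a median of 0.05 against -0.01. The comparisons with vehicle share the vehicle libraries, and the forskolin counts include Slc40a1, whose differences from vehicle are given with no p. From 4 h to 1 day 3 of the 10 rose and 4 fell (28.4% and 28.9% of all genes), or 4 and 2 with library sizes alone, and from 1 to 3 days 6 rose and 2 fell (25.2% and 25.8%). The 6 that rose between 1 and 3 days were Slc40a1, Tfrc, Trf, Steap3, Slc11a2 and Aco1, and those that fell were Slc39a14 and Ftl1.

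With both agents given for 3 days, forskolin and rosiglitazone differed mainly in Trf, Slc40a1, Aco1 and Slc39a14. In FSK3D Trf was 3.54-fold and Slc39a14 1.56-fold higher than in Rosi3D (0.65 ± 0.068 on the log2 scale for Slc39a14, adjusted p = 9.94e-10). Slc40a1 was 1.83-fold lower (-0.87 ± 0.12, adjusted p = 1.19e-07) and Aco1 1.64-fold lower (-0.71 ± 0.069, adjusted p = 4.27e-08), and in none of these 4 did the groups overlap. Tfrc was lower by a small step (-0.20 ± 0.052, adjusted p = 0.0016). Ireb2 was called higher (0.14 ± 0.053, adjusted p = 0.0318), but not without FSK3D S10 (0.11, adjusted p = 0.139), FSK3D S11 (0.10, adjusted p = 0.184), Rosi3D S14 (0.13, adjusted p = 0.081) or Rosi3D S15 (0.12, adjusted p = 0.0983). In all, 3 were higher and 3 lower, beside 22.5% and 20.7% of all genes. The ferritin chains were not called, with differences of 0.01 (95% interval -0.07 to 0.10) for Fth1 and 0.01 (-0.08 to 0.10) for Ftl1. Slc11a2 differed by 0.05 (-0.06 to 0.15) and Steap3 by 0.10 (-0.02 to 0.22), also without a call.

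The other genes of iron handling were described through 5 further lists, whose counts read against the same shares of all genes. Those shares were 28.4% higher and 30.7% lower at 4 h, 19.5% and 20.7% at 1 day and 25.9% and 27.0% at 3 days. Under rosiglitazone they were 28.6% and 32.0%. Of 15 tested genes of uptake and reduction outside the 10, 5 were higher and 4 lower at 4 h (4 and 5 with library sizes alone), 5 and 3 at 1 day, 7 and 3 at 3 days and 4 and 6 under rosiglitazone. Scara5, a receptor that takes up ferritin, rose from 13.3 ± 1.66 CPM in vehicle to 45.5 ± 2.57 at 1 day (1.77 ± 0.099, adjusted p = 6.74e-16) and 43 ± 2.66 at 3 days. Steap4, a metalloreductase related to Steap3, rose from 181 ± 8.73 to 624 ± 15.8 CPM at 1 day (1.78 ± 0.053, adjusted p = 6.92e-24), and Picalm, a clathrin adaptor, from 234 ± 9.39 to 718 ± 49.6 CPM at 4 h (1.62 ± 0.053, adjusted p = 1.14e-22). Lcn2, which binds the iron carriers of bacteria, went from 0.318 ± 0.236 CPM to 63 ± 3.47 at 1 day (7.64 ± 0.25, adjusted p = 5.4e-15), and stood at 1.97 ± 0.116 CPM at 4 h and 5.63 ± 1.93 at 3 days. Under rosiglitazone Steap1 fell from 15.5 ± 1.6 to 6.41 ± 0.485 CPM and Steap2 from 131 ± 17.4 to 59 ± 7.17 (adjusted p = 7.63e-12 and 6.04e-06). Tfr2, a second transferrin receptor, rose from 1.49 ± 0.682 CPM to 4.35 ± 1.08 in FSK3D and 5.3 ± 1.48 in Rosi3D (adjusted p = 0.000916 and 0.000115).

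Of 11 tested partners of iron release and systemic regulators, 4 were higher and 3 lower at 4 h (2 and 5 with library sizes alone), 5 and 4 at 1 day, 4 and 3 at 3 days and 3 and 5 under rosiglitazone. Ceruloplasmin (Cp), the ferroxidase that loads iron released by ferroportin onto transferrin, was 85.5 ± 1.06 CPM in vehicle and 28.5 ± 2.33 in FSK3D (-1.58 ± 0.064, adjusted p = 4.11e-20). Hfe, a partner of transferrin receptors, rose from 12.8 ± 1.67 CPM to 29.8 ± 3.35 at 1 day (adjusted p = 8.18e-13) and 36.8 ± 2.53 at 3 days (adjusted p = 2.33e-15). Smad7 and Id1, targets of the BMP pathway that controls hepcidin in liver, rose at 4 h by 1.95 ± 0.1 and 1.82 ± 0.087 (adjusted p = 4.95e-14 and 8.17e-19), and Smad7 fell by 1.70 under rosiglitazone (-1.70 ± 0.12, adjusted p = 1.39e-11). Hephl1, a ferroxidase, stayed at few counts, with 0.105 ± 0.123 CPM in vehicle, 0.62 ± 0.292 in FSK1D and 0.856 ± 0.327 in Rosi3D. The hepcidin genes Hamp and Hamp2 did not pass the filter.

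Of 11 tested genes of ferritin handling, iron chaperones and sensors, 8 were higher and 1 lower at 4 h (6 and 2 with library sizes alone), 5 and 3 at 1 day, 4 and 3 at 3 days and 3 and 4 under rosiglitazone. Rnf217, a ubiquitin ligase that acts on ferroportin, rose at 4 h from 35.7 ± 1.63 to 112 ± 7.79 CPM (1.65 ± 0.064, adjusted p = 2.26e-21). Hif1a, the oxygen-regulated factor whose hydroxylases need iron, rose from 373 ± 22.7 to 1155 ± 45.5 CPM (1.63 ± 0.067, adjusted p = 9.2e-15).

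The lists for mitochondrial iron with iron-sulfur clusters and for heme had more genes higher than lower at 1 day and under the 3-day treatments. At 1 day the median was only 0.07 in each list. Of all genes, 19.5% were higher and 20.7% lower at 1 day, 25.9% and 27.0% at 3 days of forskolin and 28.6% and 32.0% under rosiglitazone. Of 32 tested mitochondrial iron and cluster genes, 10 were higher and 8 lower at 4 h (9 and 16 with library sizes alone), 9 and 2 at 1 day, 19 and 3 at 3 days of forskolin and 22 and 4 under rosiglitazone, with a median of 0.27 and 0.50 in the last 2 groups. Isca1, Isca2 and Iba57, which assemble 4Fe-4S clusters, rose under rosiglitazone by 1.12 ± 0.076, 1.13 ± 0.084 and 1.30 ± 0.095 (adjusted p = 1.93e-14, 8.95e-14 and 5.39e-14), and the ferredoxin Fdx1 rose at 4 h by 1.72 ± 0.078 (adjusted p = 1.44e-19). At 3 days of forskolin Isca1, Isca2 and Iba57 were also called higher, by 0.81 ± 0.078, 0.7 ± 0.086 and 0.54 ± 0.1. Fdx1 was also called higher at 1 day (0.8 ± 0.08), at 3 days (0.59 ± 0.082) and under rosiglitazone (0.96 ± 0.079). Of 24 tested heme genes, 6 were higher and 11 lower at 4 h (4 and 16 with library sizes alone), 7 and 2 at 1 day, 12 and 3 at 3 days and 18 and 2 under rosiglitazone, with a median of 0.19 and 0.34 in the last 2. Heme oxygenase Hmox1, which frees iron from heme, rose at 4 h from 85.7 ± 0.778 to 393 ± 43.5 CPM (2.20 ± 0.086, adjusted p = 9.92e-13). Haptoglobin (Hp), which binds free haemoglobin, rose at 1 day from 364 ± 30.2 to 1777 ± 51.5 CPM (2.29 ± 0.15, adjusted p = 2.85e-07) and fell to 90.9 ± 5.88 under rosiglitazone (-2.00 ± 0.16, adjusted p = 5.23e-07). Hemopexin (Hpx) stayed low, at 0.67 ± 0.623 CPM in vehicle, 2.42 ± 0.237 at 4 h and 2.72 ± 0.271 at 1 day. Alas2, the erythroid form of the enzyme that starts heme synthesis, rose under rosiglitazone from 5.57 ± 1.02 to 12.2 ± 1.51 CPM (1.13 ± 0.13, adjusted p = 4.96e-09). All globin genes were at 0, while the erythroid marker Epor went from 0.425 to 2.29 CPM. Outside the 10 genes, only Alas2 (5′ UTR) and Bola3 (3′ UTR) of these lists held a match to the hairpin letters. Mature adipocyte markers rose in both 3-day groups too, and their part in these counts was not tested.

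**Figure D4:**
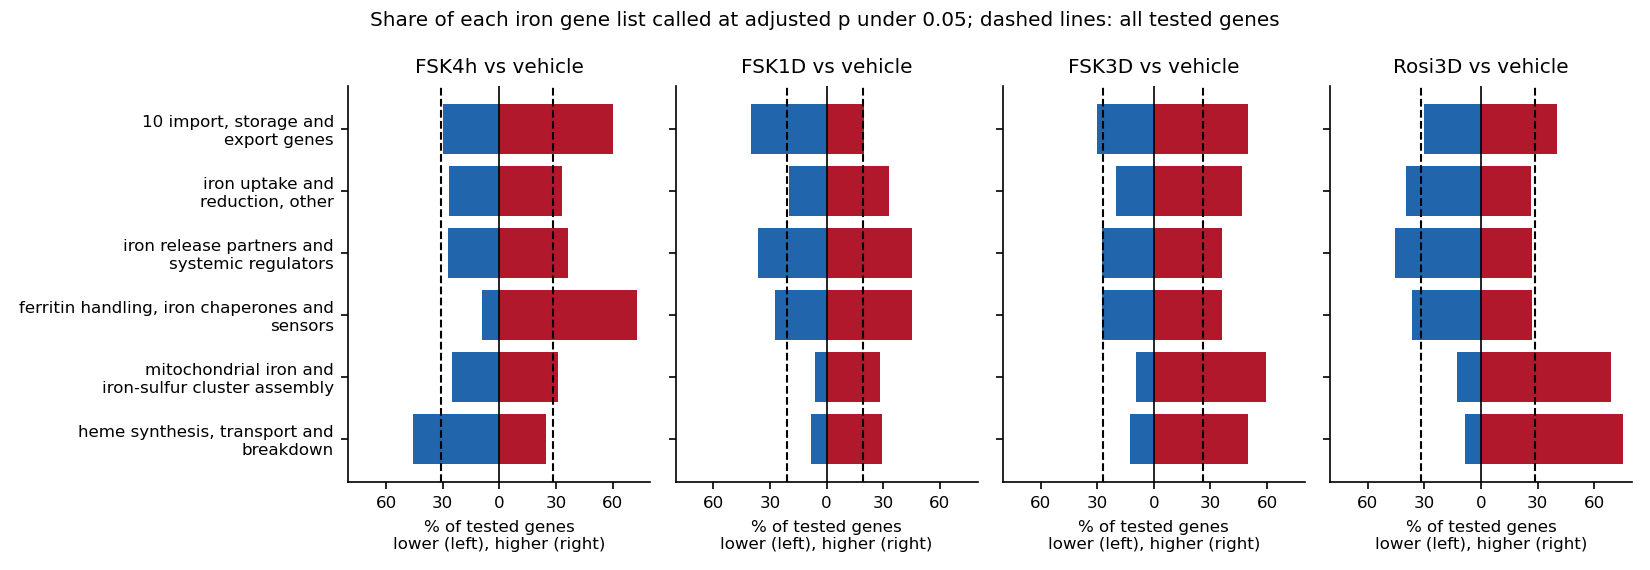
Share of the tested genes of each iron list called higher (right, red) or lower (left, blue) at an adjusted p under 0.05 in each of the 4 comparisons with vehicle, with dashed lines at the shares over all 14421 tested genes. Mitochondrial iron and heme genes lean to the right in the 3-day groups (22 and 18 higher under rosiglitazone), while the 10 import, storage and export genes have bars on both sides in all 4 panels.

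Genes whose pattern over the 15 libraries was most like that of Slc40a1, by Pearson's r of log2(CPM + 0.5) among 12532 genes with a mean of at least 1 CPM, were Slc46a3, Appl2 and Mc5r (r = 0.982 each), Pdzd7 (0.981) and Znf512b (0.977). Mc5r, a melanocortin receptor, had 8.08 CPM in vehicle and 1.15, 1.75 and 5.42 CPM at the 3 forskolin times, with 11.2 CPM in Rosi3D. For Tfrc they were Dock4 (0.946), Ap1g1 (0.938), Kdm4c (0.937), Tmeff1 (0.935) and Hspe1 (0.934). For Fth1 they were Abcg1 (0.978), Acsf2 (0.976), Psen2 (0.971), Creld1 (0.967) and Fam57b (0.966). Abcg1, a sterol exporter, stood at 18.6 CPM in vehicle, at 15, 33.5 and 43.8 CPM at the 3 forskolin times and at 45.7 CPM in Rosi3D, a wider range than that of Fth1. These values describe likeness over libraries that share their 5 groups.

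Promoter sequences of RefSeq (GRCm38.p6) were at hand for 6 of the 10 genes, in 11 entries. None was at hand for Slc40a1, Slc11a2, Slc39a14 and Trf, so their promoters were not searched. Within 250 bases upstream of the start, the cyclic AMP response element TGACGTCA stood in 0 of the 11 entries, against 1.55% of all 32851 entries. Its core TGACG, which the longer motif contains, was found on either strand in 1 entry, of Tfrc, against 17.8% of all. A match is a description of letters, and its absence says nothing of the factors that bind there.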

How the data were processed

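The authors deposited raw counts of reads, 1 column per library. The submitters' processing notes name fastp, STAR, featureCounts and the build GRCm38 (mm10). Not given in the sources used here were versions, the annotation, and how strand, read pairs and multi-mapping reads were handled. The deposited gene lengths were used only for levels per kb and ratios per base. Low counts were mostly even (407 to 539 genes with a count of 1 per library, 721 to 907 with a count of 2), so counts divided by 2 were an alternative.

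The numbers in the column names run over all libraries and are not those of the labels, so each column was an unnumbered library of its group. Library sizes were scaled by TMM after filterByExpr, and 14421 genes were tested by edgeR 4.0.16 (quasi-likelihood, robust, two-sided) in R 4.3.3. All 15 libraries entered with a mean for each group, which left 10 residual degrees of freedom, and p-values had Benjamini-Hochberg adjustment over all tested genes. DESeq2 1.42.0 was an alternative. The SE is the log2 fold change divided by the square root of F. The common biological coefficient of variation was 5.97%. On simulated counts for FSK4h against vehicle (14048 genes), 67% of genes changed by 0.5 on the log2 scale and 91% of those changed by 1 were called, and 4.82% of calls were unchanged genes. All groups were drawn there from the vehicle means, and only 100 genes of each size were changed, as many up as down. The real comparison had 8514 calls, so these shares cannot be carried over to it.

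The 10 genes and all lists were chosen with earlier results of these data known. All 10 are named. From each other iron list, up to 3 genes per comparison with vehicle were named, those with the largest change among calls of at least 2-fold whose ranges did not overlap. The lists cover uptake and reduction, release partners and systemic regulators, ferritin handling with chaperones and sensors, mitochondrial iron with iron-sulfur clusters, and heme. Timd2, Ltf, Hamp, Hamp2, Ftmt and Cd163 did not pass the filter, and Hjv, Erfe, Flvcr1 and Flvcr2 were not matched by symbol.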

Additional observations from a re-analysis of the deposited data

Results flagged for a closer look

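The forskolin times were compared with each other by the edgeR test of the difference itself, in the fit of all 15 libraries. With a single vehicle group, a change in the forskolin effect cannot be told apart from time in culture in these steps. From 4 h to 1 day 7 of the 10 genes were called, beside 28.4% higher and 28.9% lower of all genes, and from 1 to 3 days 8 of 10, beside 25.2% and 25.8%. Slc40a1 is in both counts. Between 4 h and 1 day Slc40a1 rose by 1.03 (with no p, as above), Fth1 by 0.26 (adjusted p = 1.03e-06) and Steap3 by 0.23 (adjusted p = 0.00131). Over the same step the difference was -1.12 for Tfrc (adjusted p = 1.47e-18), -0.35 for Ftl1 (adjusted p = 1.26e-08), -0.21 for Ireb2 (adjusted p = 0.000837) and -0.22 for Aco1 (adjusted p = 0.0115). Ireb2 and Aco1 were both at -0.05 with library sizes alone as scaling (adjusted p = 0.473 and 0.462).

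Between 1 and 3 days the difference was 1.77 for Slc40a1 (adjusted p = 9.33e-13), 0.74 for Tfrc (adjusted p = 7.36e-14), 0.22 for Slc11a2 (adjusted p = 0.000792), 0.84 for Aco1 (adjusted p = 4.03e-09), 0.32 for Steap3 (adjusted p = 2.85e-05) and 1.48 for Trf (adjusted p = 4e-06). It was -0.16 for Ftl1 (adjusted p = 0.00173) and -1.64 for Slc39a14 (adjusted p = 1.45e-20). Called higher than vehicle at 1 forskolin time and lower at another were Tfrc, Ftl1 and Aco1. How many of all genes did so was not counted, so nothing is read from their number. Tfrc was higher at 4 h and lower at 1 day, Ftl1 higher at 4 h (not with library sizes alone) and lower at 3 days, and Aco1 lower at 4 h and 1 day and higher at 3 days, the last a call that was lost without vehicle S1, vehicle S3 or FSK3D S12.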

How the results depend on the processing

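No paired analysis was possible because the count columns carry a running library number and not the replicate numbers of the labels. The number of the 10 genes called was 9 at 4 h (7 to 9 when single libraries were left out), 6 at 1 day (6 to 7), 8 at 3 days (7 to 9), 7 under rosiglitazone (7 to 7), 7 from 4 h to 1 day (6 to 8), 8 from 1 to 3 days (8 to 9) and 6 between FSK3D and Rosi3D (5 to 6). Of all genes, 28.4% were higher and 30.7% lower at 4 h, 19.5% and 20.7% at 1 day and 25.9% and 27.0% at 3 days. Under rosiglitazone the shares were 28.6% and 32.0%, and from 4 h to 1 day 28.4% and 28.9%. From 1 to 3 days they were 25.2% and 25.8%, and between FSK3D and Rosi3D 22.5% and 20.7%. Slc11a2 at 4 h reversed to -0.06 with library sizes alone. That scaling, which drops the TMM factors, moved the median of all genes by -0.19 at 4 h and 0.16 from 4 h to 1 day. The share of calls that were higher was then 27.3% in place of 48.1%, and 68.8% in place of 49.6%. It also ended the calls of Ftl1 (0.06), Ireb2 (0.09) and Trf (0.25) at 4 h and called Ftl1 at 1 day (-0.12). Other changed calls were Trf at 4 h with only the 2 groups fitted (0.45, adjusted p = 0.0636), Trf at 1 day (0.30) and from 4 h to 1 day (-0.15) with no filter on low counts, Tfrc at 3 days with counts divided by 2 (0.12, adjusted p = 0.0494), Ireb2 between FSK3D and Rosi3D with DESeq2 (0.13, adjusted p = 0.0557), and Slc39a14 from 4 h to 1 day, called at 0.14 with either other filter, halved counts or Rn45s left out and at 0.30 with library sizes alone. For these the cause was not tested. Depth limits Slc40a1 most, with 32 to 44 counts per FSK4h library.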
